A study of Mus musculus with 9 samples.

Results

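The genes described here handle iron: Cybrd1, Tfrc, Slc11a2 and Trf in uptake, Fth1 in storage, Slc40a1 and Cp in export, Hmox1 in the release of iron from haem, and Aco1 and Ireb2 in iron sensing. Of these 10 genes, 9 were measured by a probe set with a single gene symbol, among 18193 such genes, and they had 26 probe sets of 45101 on the array besides 3 control probe sets for Tfrc. Trf was named only by a probe set that it shares with Srprb and is not among the 9. The genes were chosen by their symbols with signals of these same 9 arrays already known, so their differences between the groups are given as descriptions, with no p. Their number past a threshold is given only at the end, for its dependence on settings, and nothing is read from it.

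The 3 groups were cultured mouse cells on the C57BL/6 background, measured on Affymetrix Mouse Genome 430 2.0 arrays with 3 arrays a group. Glioma stem cells were grown from optic nerve gliomas of 3-month-old mice with the genotype label Nf1+/-GFAP CKO, in which GFAP names the gene of an astrocyte filament and the driver is not described further. Nf1-null neural stem cells (NSC) were third-ventricle cells of Nf1flox/flox pups at postnatal day 1 that had received a Cre virus. Wild-type NSC were cells of the same source and genotype that had received a LacZ virus, so they carry the floxed alleles too. All were kept in low-attachment dishes with N2, B27, 20 ng/ml FGF and 20 ng/ml EGF. The NSC came from 3 cultures described as independent and nothing is said of this for the glioma stem cells, whose spread may be technical. Glioma stem cells differ from both NSC groups in age, tissue and genotype at once. Both NSC groups also received a virus, and none is named for the glioma stem cells. These differences cannot be told apart.

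Most cells take up iron bound to transferrin, the product of Trf, through the transferrin receptor Tfrc, and the ferrous iron then leaves the endosome through the transporter Slc11a2. Cybrd1 is a membrane reductase that turns ferric into ferrous iron, known best from the gut. Iron that is not used is stored in ferritin, whose heavy chain Fth1 oxidises it, or leaves through ferroportin, the product of Slc40a1, helped by the copper oxidase ceruloplasmin, the product of Cp, which astrocytes make in the brain. When iron is scarce, the regulatory proteins encoded by Aco1 and Ireb2 bind stem-loops in messenger RNAs, which protects the Tfrc message and holds back translation of ferritin and ferroportin. Array signals report RNA and say nothing of that translational step.

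The sequences just before the first base of 3 of these genes are shown because Cybrd1 had the largest difference among the 9 genes, Cp the largest in the other direction, and Aco1 differed little. Each is 120 bases of the plus strand of GRCm38.p6 (RefSeq), with GC boxes, the letters GGGCGG on either strand, in capitals.
Cybrd1, chr2:71117934-71118053: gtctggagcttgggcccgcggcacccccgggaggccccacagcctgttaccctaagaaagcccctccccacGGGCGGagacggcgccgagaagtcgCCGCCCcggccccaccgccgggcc
Cp, chr3:19956813-19956932: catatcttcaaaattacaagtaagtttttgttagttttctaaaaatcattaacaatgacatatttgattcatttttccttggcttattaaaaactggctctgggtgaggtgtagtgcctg
Aco1, chr4:40143145-40143264: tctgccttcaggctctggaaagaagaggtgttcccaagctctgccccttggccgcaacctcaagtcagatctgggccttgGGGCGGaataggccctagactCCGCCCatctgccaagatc
The stretch of Cybrd1 held 2 GC boxes, beginning 49 and 24 bases before the gene's first base, and that of Aco1 held 2, at 40 and 19 bases. The stretch of Cp held none and is rich in A and T. Over the 300-base promoter windows of RefSeq, which run 250 bases before to 50 after a start, 6 of the 10 genes had an entry. These genes had 9 windows, and a GC box lay in 5 of the 9, 1 each of Aco1, Cybrd1, Fth1, Ireb2 and Tfrc, and in 35.7% of all 32851 windows. The letters ACGTG, the core of hypoxia response elements, were found on either strand in 2 of the 9, both of Tfrc, and in 19.6% of all windows. The letters TGACNNNGC, the core of antioxidant response elements, were found on either strand in 0 of the 9 and in 12.4% of all windows.

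The checks of the arrays concern all genes. Each array had a trimmed mean signal of 1500 (2% of probe sets left out at either end), so values are relative to an array's total. Nf1, the targeted gene, was read by its probe set with the highest mean. Its signals were 548.9 to 622.6 in glioma stem cells, 430.3 to 645.8 on Nf1-null NSC arrays and 919.5 to 1139.5 on wild-type NSC arrays. Another probe set read 146.6 to 206.2, 25.2 to 99.7 and 101.1 to 175.4 in that order of groups. There glioma stem cells overlapped with wild-type NSC, so their lower Nf1 signal depended on the probe set. The dimmest Nf1 probe set lay between 5.5 and 103.9 on all arrays. Whether its probes lie in the deleted exons was not known here. Actb, whose 3' over 5' signal is a sign of RNA quality, had ratios of 1.73 to 1.85, 1.49 to 1.67 and 1.87 to 1.88 in the same order of groups. Summed signals of 8 neural stem cell markers overlapped among the groups, at 222594.5 to 259829.4 in glioma stem cells, 225998.5 to 264090.7 on Nf1-null NSC arrays and 213641.5 to 280357.9 on wild-type NSC arrays. Most of each sum came from Fabp7 and Vim, and single markers did separate. Msi1 and Sox9 were lower in glioma stem cells than in both NSC groups without overlap. Pax6 was higher than in Nf1-null NSC. Against wild-type NSC, Sox2 was lower and Nes and Vim higher. The rest overlapped. All 10 markers of microglia and macrophages were under 500 on every array.

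Cybrd1, the ferric reductase, was far lower in the glioma stem cells. Its signal was 161.2, 112.9 and 39.8 on the glioma stem cell arrays, 15615.5, 7000 and 10513.2 on the Nf1-null NSC arrays and 14725.3, 6647.8 and 11346.4 on the wild-type NSC arrays. The means were 104.6 ± 61.1, 11042.9 ± 4332.1 and 10906.5 ± 4056.7 (SD, n = 3 each), in that order of groups. The highest glioma stem cell array lay far below the lowest NSC array. On the scale log2(signal + 1), used for all differences here, glioma stem cells stood at -6.85 ± 0.57 relative to Nf1-null NSC and at -6.83 ± 0.57 relative to wild-type NSC (moderated SE), which is 115-fold and 114-fold lower. In cultured cells, a smaller share of cells of one type and less RNA in each cell cannot be told apart.

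The size of the Cybrd1 difference depended on the probe set, its direction did not. The other probe set read 354, 274.9 and 266.4 in glioma stem cells, 3061.4, 1941.4 and 2578.6 on Nf1-null NSC arrays and 3166.6, 1474.1 and 2431.4 on wild-type NSC arrays. Its differences were -3.06 and -2.92 ± 0.31, again without overlap of the groups. With all probe sets of a gene averaged, Cybrd1 stood at -4.96 relative to Nf1-null NSC, and without glioma stem cell array 3 it stood at -6.27. No detection calls were used, and how much of the remaining glioma stem cell signal lies above background is not known.

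Part of the astrocyte markers were also lower in glioma stem cells. The summed signal of 7 of them was 73894.1 to 75718.1 in glioma stem cells, 94674.9 to 146479.1 on Nf1-null NSC arrays and 172436.3 to 220060.2 on wild-type NSC arrays. Relative to Nf1-null NSC, 3 of the 7 (Aqp4, Aldh1l1, Gja1) were lower without overlap, 1 (S100b) was higher and 3 (Gfap, Slc1a3, Slc1a2) overlapped. Relative to wild-type NSC 5 were lower, S100b was higher and Slc1a2 overlapped.

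Aldh1l1, an astrocyte folate enzyme, read 660.4, 282.7 and 239.5 in glioma stem cells, 31920.6, 25833.2 and 40852.5 on Nf1-null NSC arrays and 32418.4, 33105.9 and 43185.6 on wild-type NSC arrays. S100b read 17467.7, 34245.9 and 33524.6 in glioma stem cells, 3070.8, 3884.3 and 10179.4 on Nf1-null NSC arrays and 4451.4, 6913.8 and 11308.3 on wild-type NSC arrays. None of the 7 astrocyte markers was at 0, and 2, Gfap and Aqp4, were under 500 on every glioma stem cell array. Between the NSC groups the summed astrocyte signal separated, lower in Nf1-null NSC, while Cybrd1 did not. The part of any of these markers in the Cybrd1 difference was not tested.

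Between the NSC groups Cybrd1 differed by 0.02 ± 0.57. Its arrays ran in step instead: same-numbered Nf1-null and wild-type arrays differed by 0.08, 0.07 and -0.11, while signals within each group spanned more than that. Array 1 was the highest and array 2 the lowest in both NSC groups.

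**Figure D1:**
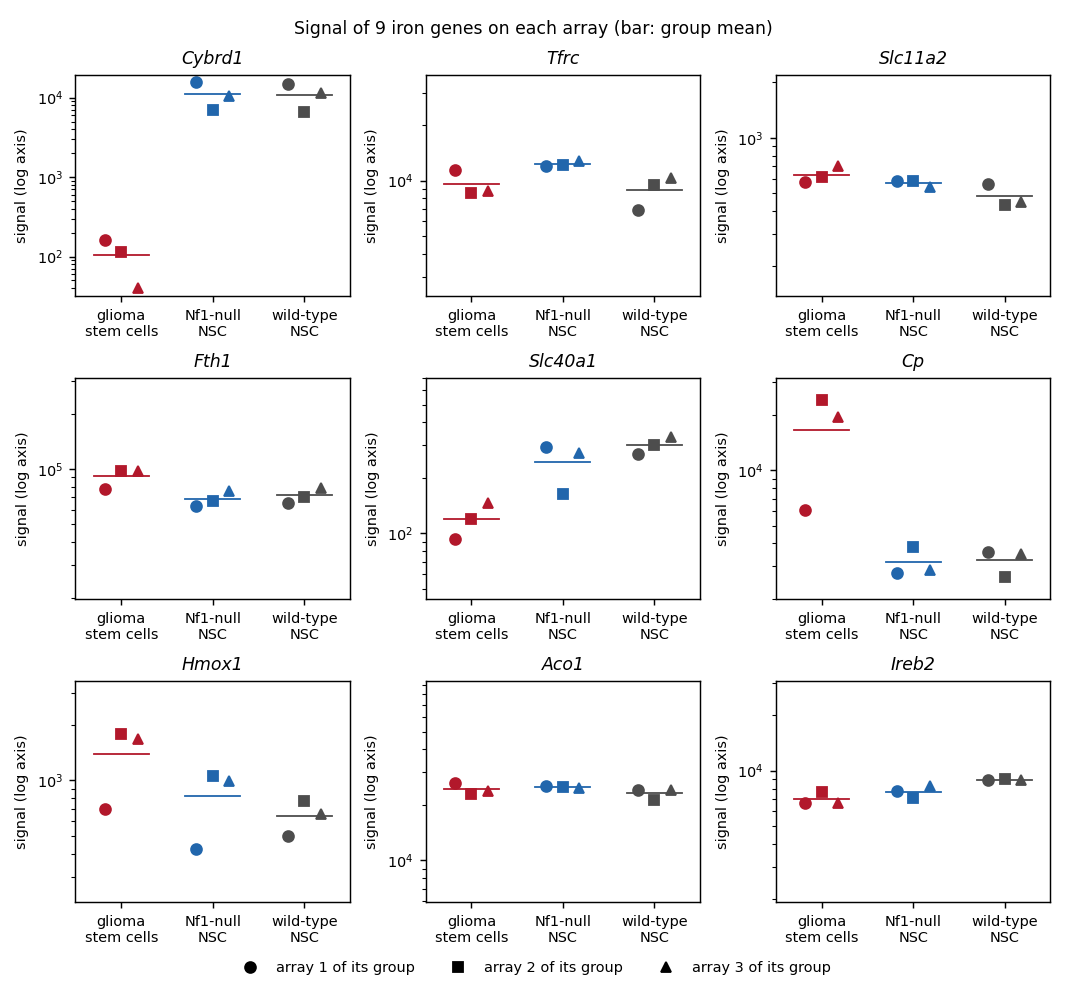
Signal on each array, on log axes, of the 9 measured iron genes (probe set with the highest mean log2 signal), with glioma stem cells on the left, then Nf1-null NSC and wild-type NSC; symbols give the array number and bars the group mean. Cybrd1 lies at 161.2 or less in glioma stem cells and at 6647.8 or more in NSC, while Aco1 and Ireb2 move little.

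Tfrc, the transferrin receptor, showed its clearest separation between the NSC groups. It read 11406, 8559.5 and 8827.3 in glioma stem cells, 11940.1, 12166.7 and 12823.5 on Nf1-null NSC arrays and 6926.2, 9449.1 and 10288.7 on wild-type NSC arrays. The Nf1-null arrays all lay above the arrays of both other groups, which overlapped with each other. Nf1-null NSC stood at 0.49 ± 0.20 relative to wild-type NSC, 1.40-fold higher, and the same-numbered pairs gave 0.79, 0.36 and 0.32. Glioma stem cells stood at -0.37 ± 0.20 relative to Nf1-null NSC and at 0.12 ± 0.20 relative to wild-type NSC.

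The dimmer probe sets of Tfrc were higher on average in Nf1-null than in wild-type NSC, while glioma stem cells did not follow a single pattern. One of them read 245.9, 185.4 and 186.5 in glioma stem cells, 165.5, 824.1 and 848.4 on Nf1-null NSC arrays and 195.2, 190.9 and 274.2 on wild-type NSC arrays. Arrays 2 and 3 of the Nf1-null NSC thus stood apart from the other 7. The control probe set for the 3' end of the message had the same shape, with 499.4 and 604.3 on those arrays and 221.8 or less on the others. Another dim probe set read 97.8, 143.2 and 100.6 in glioma stem cells, 128.4, 127.9 and 113 on Nf1-null NSC arrays and 7.9, 82.7 and 26.6 on wild-type NSC arrays. There glioma stem cells lay above wild-type NSC without overlap, at 2.05 ± 0.70.

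Slc11a2, the endosomal iron transporter, was higher in glioma stem cells than in wild-type NSC on 1 of its 4 probe sets, the one with the highest mean. That probe set read 572.7, 609.6 and 703.7 in glioma stem cells, 584.6, 585.3 and 542.5 on Nf1-null NSC arrays and 562.7, 432.1 and 449.9 on wild-type NSC arrays. The glioma stem cell arrays lay just above the wild-type NSC arrays (0.39 ± 0.16) and overlapped with the Nf1-null NSC arrays (0.13 ± 0.16). The other 3 probe sets overlapped in both comparisons, with differences of -0.11 to 0.15.

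Fth1, the ferritin heavy chain, was modestly higher in glioma stem cells. It read 77428.6, 97772.9 and 97704.2 in glioma stem cells, 62984.7, 67032.6 and 76198.8 on Nf1-null NSC arrays and 65473.4, 70536.3 and 79182.4 on wild-type NSC arrays. The glioma stem cell arrays were above every Nf1-null array, at 0.40 ± 0.17 or 1.32-fold, while their array 1 lay below 1 wild-type array, with a difference of 0.34 ± 0.17. The other probe set gave 0.45 and 0.26. Between the NSC groups the same-numbered pairs lay within 0.01 of each other, at -0.06, -0.07 and -0.06.

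Slc40a1, the only known iron exporter, was lower in glioma stem cells, on signals below those of most genes. Its stronger probe set read 92.9, 119.2 and 146.1 in glioma stem cells, 293.6, 163 and 272.4 on Nf1-null NSC arrays and 270.1, 302 and 331.6 on wild-type NSC arrays. No glioma stem cell array reached an NSC array, though Nf1-null array 2 came close. The differences were -1.0 ± 0.27 relative to Nf1-null NSC and -1.35 ± 0.27 relative to wild-type NSC, 2.0-fold and 2.54-fold lower. The second probe set lay between 16.4 and 235.5 on all 9 arrays, and its groups overlapped.

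Cp, the ceruloplasmin gene, was higher in glioma stem cells on every one of its 8 probe sets. The one with the highest mean read 6105.8, 24114.7 and 19366.3 in glioma stem cells, 2759.3, 3847.7 and 2876.9 on Nf1-null NSC arrays and 3606.2, 2641 and 3514.9 on wild-type NSC arrays. Glioma stem cells averaged 16528.9 ± 9333.7, Nf1-null NSC 3161.3 ± 597.3 and wild-type NSC 3254 ± 532.9 (SD, n = 3 each). The groups did not overlap, although glioma stem cell array 1 lay well below arrays 2 and 3. The differences were 2.18 ± 0.48 relative to Nf1-null NSC and 2.14 ± 0.48 relative to wild-type NSC, 4.54-fold and 4.40-fold higher, and without array 1 they were 2.79 and 2.74.

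Over the 8 probe sets of Cp, which share a message and are not replicates, differences ran from 1.64 to 2.48 relative to Nf1-null NSC and from 1.30 to 2.75 relative to wild-type NSC, with no overlap of the groups in any. Between the NSC groups they lay between -0.34 and 0.61.

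**Figure D2:**
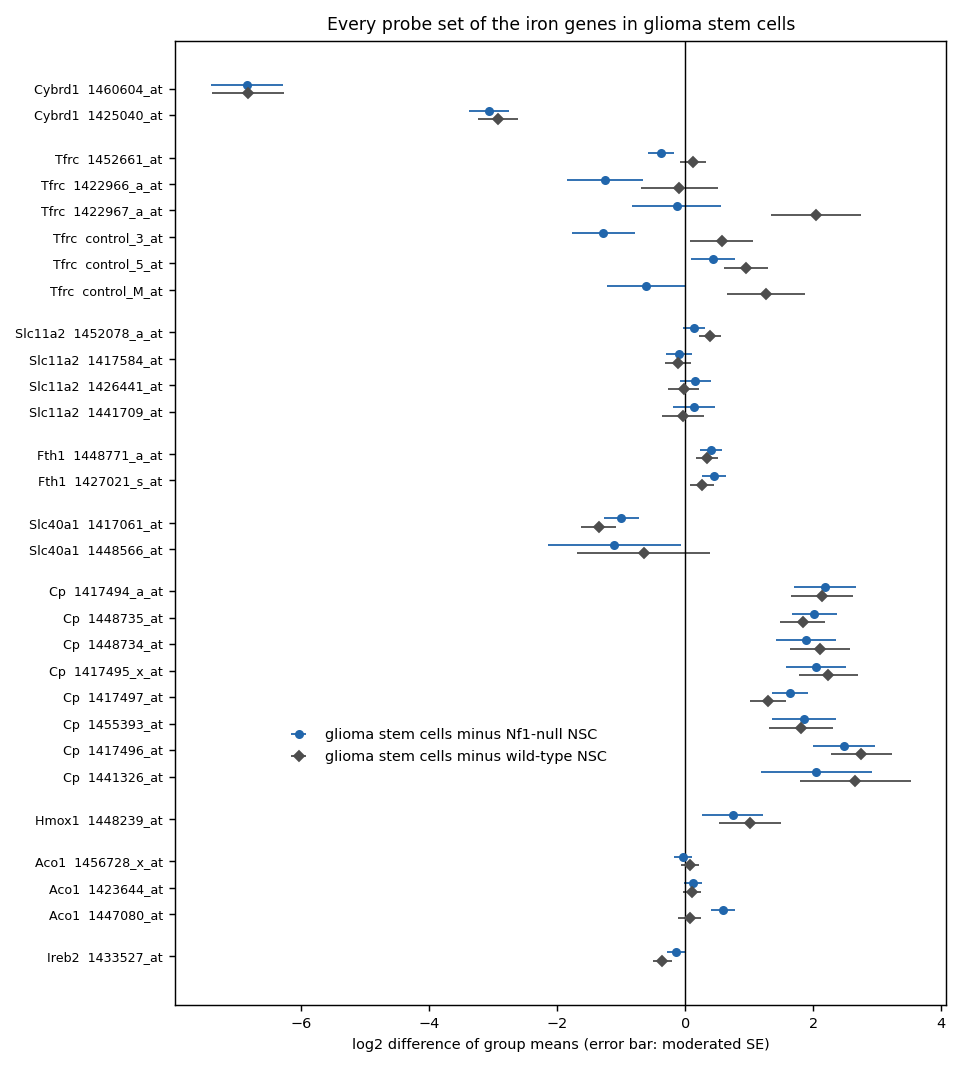
Log2 differences of group means with moderated SE for every probe set of the 9 genes, glioma stem cells minus Nf1-null NSC (circles) and minus wild-type NSC (diamonds). Both Cybrd1 probe sets lie left of 0 and all 8 Cp probe sets right of 0, while the probe sets of Tfrc scatter.

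Hmox1, which splits haem and frees its iron, had higher means in glioma stem cells with overlapping arrays. It read 694.9, 1794.1 and 1676 in glioma stem cells, 424.3, 1061.4 and 990 on Nf1-null NSC arrays and 499.2, 775.5 and 656.1 on wild-type NSC arrays. In each group array 1 was the lowest. The differences were 0.74 ± 0.48 relative to Nf1-null NSC and 1.01 ± 0.48 relative to wild-type NSC.

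The 2 sensors differed little between the groups on their probe sets with the highest mean. Aco1, whose protein is a cytosolic aconitase when it carries an iron-sulfur cluster, read 26441.3, 22999.7 and 23919.1 in glioma stem cells, 25224.1, 25040.4 and 24750.6 on Nf1-null NSC arrays and 23995.7, 21267.9 and 24147 on wild-type NSC arrays. On this probe set the glioma stem cell arrays overlapped with both NSC groups, at -0.03 and 0.08 ± 0.13. The Nf1-null arrays lay just above the wild-type arrays, at 0.11. On both other probe sets of Aco1 every glioma stem cell array lay above every Nf1-null array, at 0.12 ± 0.14 and 0.59 ± 0.18. There they overlapped with the wild-type arrays. The dimmest of the 3 Aco1 probe sets ran the other way between the NSC groups, at 190.5, 135.2 and 170.1 on Nf1-null NSC arrays against 231.7, 217.9 and 259.1 on wild-type NSC arrays.

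Ireb2, the other iron regulatory protein, read 6637.3, 7628.1 and 6662.4 in glioma stem cells, 7728.6, 7099.7 and 8223.1 on Nf1-null NSC arrays and 8842.8, 8996.2 and 8917 on wild-type NSC arrays. Every glioma stem cell and Nf1-null array lay below the wild-type arrays, which were tightly grouped. The differences from wild-type NSC were -0.36 ± 0.14 in glioma stem cells and -0.22 ± 0.14 in Nf1-null NSC. Glioma stem cells and Nf1-null NSC overlapped, at -0.14 ± 0.14.

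Counted together, glioma stem cells against Nf1-null NSC showed 2 genes higher without overlap (Fth1, Cp) and 3 lower (Cybrd1, Tfrc, Slc40a1), where 9.24% of all genes were higher and 12.7% lower in that way. Against wild-type NSC, Cp and Slc11a2 were higher and Cybrd1, Slc40a1 and Ireb2 lower without overlap, beside 13.9% and 20.9% of all genes. The comparisons share the glioma stem cell arrays. Nothing is read from these counts, since the genes were chosen with the contrasts known.

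Nf1-null NSC and wild-type NSC separated in 3 of the 9 genes, with Tfrc and Aco1 higher and Ireb2 lower, beside 9.75% and 14.1% of all genes. The median difference over the 9 genes was 0.02, against -0.06 over all genes. It was -0.03 for glioma stem cells relative to Nf1-null NSC (-0.04 over all genes) and 0.12 relative to wild-type NSC (-0.09 over all genes). Shifting the arrays to the same median moved the last of these all-gene medians to 0.05.

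The glioma stem cell arrays were not alike. Cp was 3.54-fold higher on arrays 2 and 3 than on array 1, Hmox1 2.49-fold and Fth1 1.26-fold, whereas Tfrc stood at 0.762-fold and Cybrd1 at 0.42-fold of its array 1 signal. Summed signals of 8 mature oligodendrocyte markers were 27909.6, 58281.1 and 93047.1 on the same arrays, against 20831 to 45332.7 on Nf1-null NSC arrays and 42573.2 to 63818.7 on wild-type NSC arrays. The other 7 markers summed to 25308.3, 29223.8 and 27807.9, so nearly all of the spread of the sum was that of Mbp. Mbp, the myelin basic protein gene, read 2601.3, 29057.3 and 65239.2 on the glioma stem cell arrays, 189.2 to 376.5 on Nf1-null NSC arrays and 495.4 to 6599.4 on wild-type NSC arrays. Most of the sum of the other 7 was Cnp. The dim Mog (20.7, 140 and 389.2) and Mag (175.1, 512.4 and 867.4) rose over the glioma stem cell arrays in the order of Mbp. Cnp, Mobp, Cldn11, Mal and Opalin did not. None of the 8 markers was at 0, and 4 were under 500 on every glioma stem cell array. Summed signals of 9 proliferation genes were 163304.1, 114994.2 and 121465.7 on the glioma stem cell arrays, 64805.4 to 131772.4 on Nf1-null NSC arrays and 20601.4 to 60852.6 on wild-type NSC arrays. The part of Mbp and of the proliferation genes in the spread of Cp and Hmox1 was not tested.

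**Figure D3:**
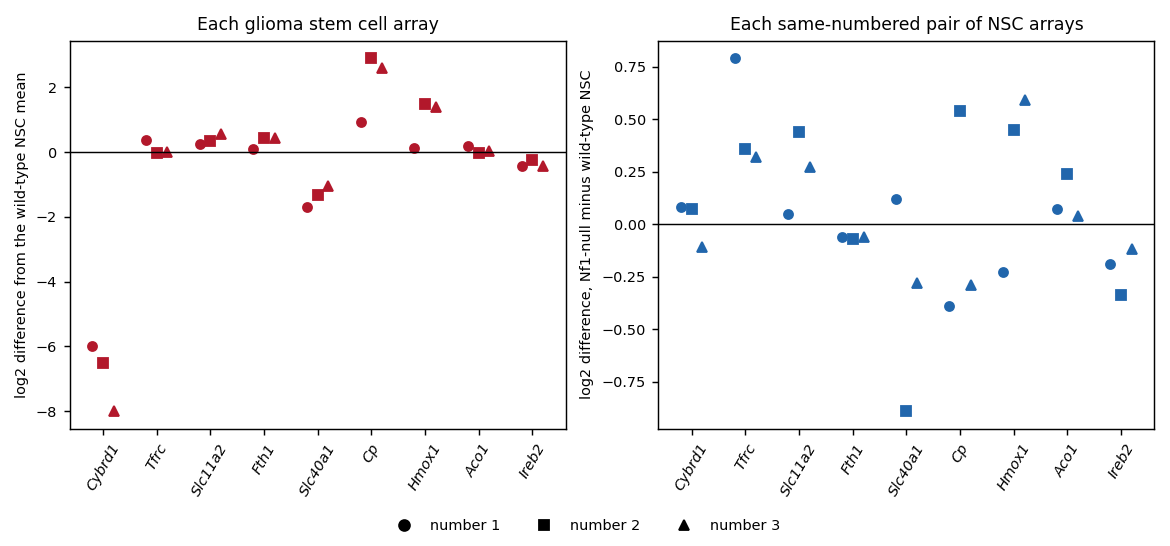
Left, log2 difference of each glioma stem cell array from the wild-type NSC mean for the 9 genes; right, log2 difference of Nf1-null minus wild-type NSC for each pair of arrays with the same number. Cp spans 0.92 to 2.9 on the left, and on the right Tfrc is above 0 in 3 of 3 pairs and Fth1 and Ireb2 below 0 in 3 of 3.

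Other genes of iron biology, grouped in 6 lists, were taken by their function and tested in the fit of all genes, though they too were listed with earlier results known. Of 94 listed genes 87 were measured. Against Nf1-null NSC, 0 rose and 1 fell in glioma stem cells (limma, Benjamini-Hochberg adjusted over all genes), with 14 at an unadjusted p under 0.05, while 0.671% of all genes rose and 1.08% fell. Against wild-type NSC 2 rose and 4 fell, with 26 at an unadjusted p under 0.05, while 3.46% of all genes rose and 5.6% fell. Of all 18193 genes, 2995 were at an unadjusted p under 0.05 against Nf1-null NSC and 4781 against wild-type NSC (limma). The median difference over the 87 genes was -0.0023 and 0.0485. Without a single array the first count lay between 0 and 3, with 3 without glioma stem cell array 1 and 0 without glioma stem cell array 2, Nf1-null array 1 or 3 or any wild-type array. The second count was 13 without glioma stem cell array 1, 0 without glioma stem cell array 2 or wild-type array 2, 2 without glioma stem cell array 3 and 3 without wild-type array 3. Besides the arrays that brought this count to 0, single arrays ended calls against wild-type NSC for Neo1 and Cdkn1a (glioma stem cell array 3), Bola3 (glioma stem cell array 3, wild-type array 1), Hebp1 (glioma stem cell array 3, wild-type array 3) and Slc39a8 (wild-type array 3).

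Among 17 other uptake and endosome genes, 1 fell in glioma stem cells in both comparisons and none rose. It was Slc39a8, a zinc transporter that also carries ferrous iron, which read 24.9, 15.7 and 75.4 in glioma stem cells, 191.9, 228.2 and 304.8 on Nf1-null NSC arrays and 248.7, 287.5 and 450.3 on wild-type NSC arrays. These dim signals did not overlap between glioma stem cells and NSC. It fell by 2.89 on the log2 scale relative to Nf1-null NSC (SE 0.54, limma adjusted p = 0.0488), a call that held in 6 of 18 alternatives, and stood at -3.31 relative to wild-type NSC (SE 0.54, limma adjusted p = 0.0179), which held in 14 of 18. Its other probe set lay between 3.4 and 60.6 on all arrays.

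The endosomal and surface reductases of the Steap family share the ferric reductase activity of Cybrd1 and were named after their values were seen. None of Steap2, Steap3 and Steap4 passed the threshold, nor did Steap1 of the same family. Steap3, the reductase of the transferrin endosome, read 175.3, 251.7 and 211.8 in glioma stem cells, 107.7, 156.6 and 30 on Nf1-null NSC arrays and 98, 27.3 and 55.6 on wild-type NSC arrays. The glioma stem cell arrays were the highest 3 of 9, with differences of 1.39 (limma adjusted p = 0.35) and 1.97 (limma adjusted p = 0.106). Steap2 differed by 0.47 and 0.27, and Steap4 by -0.71 and -0.55, both with overlapping arrays. Steap1 read 692.6, 2406.1 and 2581.1 in glioma stem cells, 662, 1406 and 984.1 on Nf1-null NSC arrays and 442.4, 407.2 and 1153.6 on wild-type NSC arrays. Its differences were 0.74 (limma adjusted p = 0.608) and 1.46 (limma adjusted p = 0.1875), with overlapping arrays.

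Of 6 storage and chaperone genes, 0 passed the threshold in any comparison. The largest differences were those of Pcbp4, of the family of poly(C)-binding proteins that includes iron chaperones, at -0.58 (limma adjusted p = 0.495) and -0.93 (limma adjusted p = 0.162), and of mitochondrial ferritin Ftmt, at 0.72 and 0.78 with SE 0.95.

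Of 12 other export and hepcidin axis genes, 0 passed against Nf1-null NSC and 2 fell against wild-type NSC. Neo1, encoding neogenin, a receptor for netrins that also binds hemojuvelin, read 6363.3, 6887.4 and 7154.5 in glioma stem cells, 6238.3, 5756.7 and 7396.6 on Nf1-null NSC arrays and 14992.6, 13035 and 13008.5 on wild-type NSC arrays. It fell by 1.01 in glioma stem cells relative to wild-type NSC (SE 0.15, limma adjusted p = 0.0156). A second probe set had the same shape, at 2727, 2838.4 and 2611.2 in glioma stem cells, 2331.1, 2090 and 2968.7 on Nf1-null NSC arrays and 5960.3, 5258.6 and 4712.7 on wild-type NSC arrays. The call held in 15 of 19 alternatives and was lost with all 5 probe sets averaged, at -0.57, and without glioma stem cell array 2 or 3 or wild-type array 2. Glioma stem cells and Nf1-null NSC overlapped, with a difference of 0.08, and Nf1-null NSC stood at -1.09 relative to wild-type NSC (limma adjusted p = 0.0825).

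Flvcr2, a transporter described first for haem and later for choline, read 201.4, 190.2 and 38.4 in glioma stem cells, 319.5, 512.3 and 459.1 on Nf1-null NSC arrays and 617.1, 584.4 and 667.3 on wild-type NSC arrays. The 3 groups were ordered without overlap. It fell by 2.44 in glioma stem cells relative to wild-type NSC (SE 0.59, limma adjusted p = 0.0453), a call that held in 5 of 18 alternatives, was lost with the replicate block (limma adjusted p = 0.0685) and among the fits without 1 array held only without glioma stem cell array 1 or 3. It stood at -1.88 relative to Nf1-null NSC (limma adjusted p = 0.176).

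Of 15 sensing and haem or redox regulators, 1 rose against wild-type NSC and 0 passed against Nf1-null NSC. Cdkn1a, the cell cycle inhibitor p21 and a target of p53, read 22677.2, 34392 and 30939.5 in glioma stem cells, 12944.8, 21392.6 and 18296.5 on Nf1-null NSC arrays and 4489.7, 5472.9 and 10829.4 on wild-type NSC arrays. The groups stood in steps without overlap. It rose by 2.17 in glioma stem cells relative to wild-type NSC (SE 0.36, limma adjusted p = 0.0194), held in 16 of 19 alternatives. Its difference between the NSC groups was known when it was listed, so it is no independent evidence. This holds also for its place among the 2 other iron genes that rose against wild-type NSC. Relative to Nf1-null NSC the largest differences in this list were those of the hypoxia factor Epas1, at 1.86 (limma adjusted p = 0.294), and of sulfiredoxin, Srxn1, at 1.03 (limma adjusted p = 0.409). Relative to wild-type NSC Srxn1 stood at 1.45 (limma adjusted p = 0.145) and passed with the replicate block (limma adjusted p = 0.0288) and without glioma stem cell array 1 (limma adjusted p = 0.0464).

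Of 22 mitochondrial iron and iron-sulfur cluster genes, 1 rose against wild-type NSC and 0 passed against Nf1-null NSC. Bola3, an assembly factor for mitochondrial iron-sulfur clusters, read 8561.7, 11219.9 and 13236.6 in glioma stem cells, 5723.2, 6338.5 and 6433.2 on Nf1-null NSC arrays and 4949.2, 4059.1 and 5731.6 on wild-type NSC arrays. All glioma stem cell arrays were above all NSC arrays. It rose by 1.15 relative to wild-type NSC (SE 0.21, limma adjusted p = 0.0228), held in 13 of 19 alternatives, and stood at 0.82 relative to Nf1-null NSC (limma adjusted p = 0.115). With all its probe sets averaged the difference from wild-type NSC was as low as 0.33.

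Of 15 genes of haem synthesis, transport and breakdown, 1 fell against wild-type NSC and 0 passed against Nf1-null NSC. Hebp1, a haem-binding protein, read 139, 330.9 and 233.4 in glioma stem cells, 385.9, 888.7 and 608.4 on Nf1-null NSC arrays and 933, 2691.8 and 1091.5 on wild-type NSC arrays. The groups again stood in steps without overlap. It fell by 2.66 relative to wild-type NSC (SE 0.51, limma adjusted p = 0.0264), held in 13 of 18 alternatives, and stood at -1.42 relative to Nf1-null NSC (limma adjusted p = 0.228).

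Between Nf1-null and wild-type NSC 0 of the 87 genes passed the threshold in limma, with 9 at an unadjusted p under 0.05. Of all 18193 genes 0% rose and 0% fell, with 3048 at an unadjusted p under 0.05. The largest difference among the uptake genes was that of haemopexin, Hpx, at -2.44 (limma adjusted p = 0.199), on signals of 6.7, 73.8 and 11.2 in Nf1-null NSC against 94.8, 86.4 and 133 on wild-type NSC arrays. Cdkn1a, whose difference here was known when it was listed, stood at 1.42 (limma adjusted p = 0.165) and Hebp1 at -1.24 (limma adjusted p = 0.287).

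**Figure D4:**
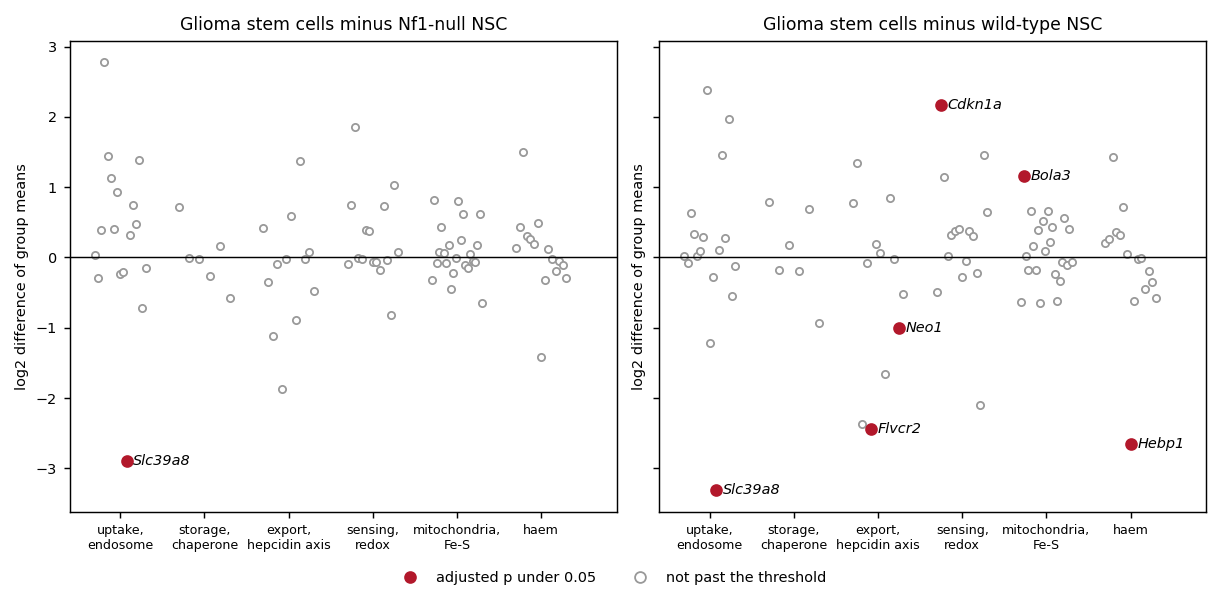
Log2 differences of glioma stem cells minus Nf1-null NSC (left) and minus wild-type NSC (right) for 87 other iron genes in 6 lists; filled points passed an adjusted p under 0.05. On the left 1 point is filled and on the right 6, of which 4 lie below 0.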

How the data were processed

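Total RNA (100 ng a sample) was labelled for 1-colour Affymetrix arrays, per the labels' protocols. The authors deposited linear intensity values, 1 per probe set, and the software behind them was not named. All arrays have the same trimmed mean, and such scaling hides differences in total RNA. The number of arrays limits the precision.

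Of the probe sets, 34945 carried exactly 1 symbol in the platform annotation, and a gene was represented by the one with the highest mean log2 signal. Group means of log2(value + 1) were fitted over all 9 arrays in limma 3.58.1 under R 4.3.3, moderated by empirical Bayes (residual degrees of freedom 6, prior 1.63). Tests were two-sided with Benjamini-Hochberg adjustment over 18193 genes and a threshold of 0.05. Folds are powers of 2 of the log2 differences. The fit was run on simulated arrays with independent noise and changes only in brighter genes. That does not speak to dim genes or to arrays that vary together, and nothing is read from it. Sequences are RefSeq's.

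The 10 genes and all lists were chosen with earlier results of these data known. From each list the text names up to 3 genes past the threshold per comparison, or up to 2 with the largest differences where none passed. The Steap genes and markers are outside this rule. Deviations from group means correlated at 0.64, 0.24 and 0.59 between NSC arrays numbered 1, 2 and 3. The values were 0.30, 0.12 and 0.11 for glioma stem cells with Nf1-null NSC and 0.24, 0.05 and 0.20 with wild-type NSC. NSC arrays 1 and 3 thus varied together with the array of the same number, and the labels state no pairing. Arrays of unlike number were not compared in this way, and what same-numbered arrays share was not tested. The value for NSC arrays 2 was no higher than the highest for glioma stem cells, so their pairing is unclear. A replicate block, 9 other settings and each array left out were run as alternatives.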

Additional observations from a re-analysis of the deposited data

Results flagged for a closer look

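A probe set outside the fit is annotated to both Trf, the transferrin gene, and Srprb, a subunit of the signal recognition particle receptor, and cannot be assigned to either. It stood out as a signal in data that no comparison used. It read 18349.1, 21210.5 and 46430 in glioma stem cells, 4714.1, 16839.4 and 13302.8 on Nf1-null NSC arrays and 1373.1, 1448.9 and 4294.9 on wild-type NSC arrays. The means were 28663.2 ± 15452.9, 11618.8 ± 6235.6 and 2372.3 ± 1665.5 (SD, n = 3 each), in the same order of groups. No glioma stem cell or Nf1-null array lay as low as the wild-type arrays, and the difference was not tested.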

How the results depend on the processing

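Of 1075 alternative values of single named genes, 0 reversed a called direction. For the chosen genes a reversal could count only where the main fit passed the threshold, and for other genes where either fit did. Sign changes of other differences were not counted, such as that of Aco1 against Nf1-null NSC (-0.09 to 0.23 over the alternatives). Against Nf1-null NSC the count of other iron genes past the threshold was 1, and 0 after arrays were shifted to one median, with a gene's probe sets averaged, with no moderation or with only the 6 arrays compared, and 2 among the brighter 9097 genes or with a mean-variance trend. It ranged from 0 to 3 with each array left out. Over all 18193 genes 299 passed with the shift, 149 with the averaging, 138 with no moderation and 29 with the 6 arrays. Against wild-type NSC the count was 6, and 3 with probe sets averaged, 12 without the dimmest 25% of genes and 14 among the brighter genes or with the trend. It ranged from 0 to 13 with each array left out. Over all genes the number was 1083 of 18193 with probe sets averaged and 2488 of 13644 without the dimmest 25%. It was 2472 of 9097 among the brighter genes and 2680 of 18193 with the trend. Between the NSC groups the count of other iron genes was 0, and 1 without the dimmest 25%, 2 among the brighter genes and 1 with the trend. In these settings 136 of 13644, 398 of 9097 and 329 of 18193 of all genes passed, in that order. The 9 chosen genes get no test of their own, and their number past the threshold is given here only for its dependence on settings. Against Nf1-null NSC it was 1 of 9, beside 319 of all 18193 genes. It was 2 without the dimmest 25%, among the brighter genes or with the trend (Cp added). All genes gave 536 of 13644, 607 of 9097 and 737 of 18193 there. With each array left out it ranged from 1 to 2, and over all genes from 72 to 721. Against wild-type NSC the number was 3 of 9, beside 1649 of 18193. With each array left out it ranged from 1 to 2, and over all genes from 214 to 1756. The filters test fewer genes, and for the other settings the cause was not tested. With the replicate block (paired by number) 1 other iron gene passed against Nf1-null NSC, 6 against wild-type NSC and 0 between the NSC groups. The 6 were not the same genes, since Flvcr2 was lost (limma adjusted p = 0.0685) and Srxn1 gained (limma adjusted p = 0.0288). The chosen genes past the threshold were then 1, 2 and 0, beside 193, 1536 and 0 of all 18193 genes. Cp was lost against wild-type NSC. Signals of Slc40a1, Slc39a8 and Flvcr2 are dim, which limits their folds.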
